A study of Mus musculus with 2 samples.

Results

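The fatty acid desaturases and elongases Fads1, Fads2, Fads3, Fads6, Scd2, Elovl1, Elovl2, Elovl3 and Elovl5 were followed in mouse liver, with Scd1 and Elovl6 left aside as genes of fatty acid synthesis. They were selected by gene symbol from the deposited expression table, and 7 of the 9 symbols were found among its 8551 genes. Fads3 and Scd2 were not analysed here. The 2 libraries were made from the livers of 9-week-old male mice, wild type in the normal group and db/db in the diabetic group, both labelled with a C57BL/6 background, fed chow and killed about 3 h after the lights came on. The db/db mouse has a defective leptin receptor gene in every tissue and becomes obese and diabetic. In such a mouse obesity, overeating and high blood glucose cannot be told apart. Several mice were kept per group, but the sources do not state whether the RNA of 1 mouse or of a pool entered a library, nor which of 2 suppliers provided which group. With 1 library per group there is no replicate check on any difference below. In whole liver, fewer cells of a type and less RNA per cell also cannot be told apart.

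Mammals cannot make linoleic or alpha-linolenic acid and take both from the diet. In the liver Fads2 places the first new double bond in these acids, Elovl5 lengthens the product, and Fads1 places a further double bond, which gives arachidonic and eicosapentaenoic acid. Elovl2, with help from Elovl5, lengthens these further, and later steps that end with shortening in peroxisomes yield docosahexaenoic acid. Elovl1 and Elovl3 instead lengthen saturated and monounsaturated chains into very long ones. Each elongase catalyses the condensation that opens a cycle of steps, and the enzymes of the later steps are shared by all elongases. Products of the pathway enter membrane phospholipids, and polyunsaturated acids are known to restrain lipid synthesis genes through SREBP-1c and to bind PPAR receptors.

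A library of this kind holds short tags, each beginning at a GATC site where the enzyme DpnII cut the cDNA, and by design the tag nearest the poly(A) end stands for 1 mRNA. The tag predicted for each member is shown because a tag of this kind, not a whole transcript, stands behind each value. The tags were read from the GENCODE M21 transcripts of the mouse build GRCm38, from the longest protein-coding transcript paired with a curated RefSeq mRNA, and are not the authors' own tag list. The capitals mark the DpnII site and the 16 bases in lower case follow it towards the poly(A) end.
Fads1: GATCtttgccagtggttggc
Fads2: GATCctctggccagttccag
Fads6: GATCctcagagagtaggaag
Elovl1: GATCcagtttgtcctggtct
Elovl2: GATCaacagtggcagctcac
Elovl3: GATCcctgtcagctagctgg
Elovl5: GATCtagaatgtgtgtatgt
The Fads1 tag lies at chr19:10196279-10196298 on the plus strand, in the 3′ UTR within exon 12 of 12. The Fads2 tag lies at chr19:10063467-10063486 on the minus strand, also in the 3′ UTR within exon 12 of 12. The Fads6 tag is at chr11:115280015-115280034 on the minus strand, in the 3′ UTR within exon 6 of 6. The Elovl2 tag is at chr13:41183160-41183179 on the minus strand and the Elovl5 tag at chr9:77984333-77984352 on the plus strand, each in the 3′ UTR within exon 8 of 8. The Elovl3 tag is at chr19:46135480-46135499 on the plus strand, in the 3′ UTR within exon 4 of 4. Only the Elovl1 tag is coding. It crosses the junction of exons 7 and 8 on the plus strand of chromosome 4 and spans chr4:118431733-118431916 with the intron.

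None of these 7 tags occurred at a GATC site of another gene in the same transcript set, whereas 3.58% of the distinct tags at the last GATC site were found in more than 1 gene. All 4 protein-coding transcripts of Elovl1 and both of Elovl2 end in the printed tag. Of the 2 protein-coding Elovl3 transcripts, 1 has another last tag, as do 2 of the 3 for Elovl5, 2 of the 4 for Fads1 and 1 of the 2 for Fads2. The Elovl1 site is 1057 bases from the end of the 1811-base transcript, and the Elovl5 site is 187 bases from the end of a 2782-base transcript. The labels name random hexamers as the primers of the cDNA, and whether tags from other GATC sites were also counted is not stated. Since tags rather than whole transcripts were counted, the values are not scaled by length, and levels of different genes are compared below as tags per 1000000 tags. Fads2 and Fads1 are direct neighbours on chromosome 19, and Fads3 is the next gene on the far side of Fads2. Elovl3 is also on chromosome 19, while Elovl1, Elovl2, Elovl5 and Fads6 are on chromosomes 4, 13, 9 and 11.

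The deposited values are called TPM and give the tags of a gene per 1000000 clean tags of its library. A read is worth 0.0973 TPM for normal and 0.074 TPM for diabetic liver, which corresponds to 10278531 and 13508232 clean tags, and a gene's number of tags (here reads) follows from its value. Fold changes and log2 ratios are diabetic over normal. Each 95% interval is exact, comes from the reads and covers counting error only, not the variation between mice. A gene was called higher or lower when it differed at least 1.5-fold and had a false discovery rate (FDR) under 0.001 in an exact binomial test on the reads, which compares these 2 libraries and not the conditions. The median log2 ratio of all listed genes was 0.25 rather than 0, and 4 other scalings lowered every ratio by 0.25 to 0.31. The liver markers Alb, Ttr, Tat, Cps1, Hnf4a, Apob and G6pc were all listed, and summed to 9899 TPM in normal and 9239.9 TPM in diabetic liver. Alb, at 6801 and 6912 TPM, made up most of both sums. Cps1 was higher, from 130 to 317 TPM, and Hnf4a (96.8 to 46.2 TPM) and Apob (804 to 147 TPM) were lower. The macrophage list had 7 of 9 markers listed, which summed to 322.5 TPM and 190.3 TPM. C1qa, the most abundant in normal liver, went from 176.5 to 50.7 TPM and carried most of this difference. In all, 4 markers were lower and 1, C1qb, higher, beside 8.19% and 22.9% of all listed genes. Under TMM scaling C1qb was not called. Cd5l, at 64.7 and 62.9 TPM, and Clec4f, with 15 reads in each library, were not called. The endothelial list (8 of 8 listed) summed to 123.6 and 115.9 TPM. Within it Clec4g was lower (47.67 to 30.65 TPM), Kdr was higher (11.97 to 22.13 TPM) and no other marker was called. The part of all these cells in the results below was not tested.

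Fads1, Elovl2 and Elovl3 were lower in the diabetic library, and no member was called higher. That is 3 of 7 members lower, where 8.19% of all listed genes were called lower, and 0 of 7 higher, where 22.9% of all listed genes were called higher. By the fold alone, 1 member, Fads6, was at least 1.5-fold higher and the same 3 were lower, beside 34.4% and 15.3% of all listed genes. Counted in either direction, 3 of 7 members were called beside 31.0% of all listed genes, and 4 of 7 by the fold alone beside 49.7%. Under TMM scaling 3 of 7 members were called, all lower, beside 28.3% of all listed genes in either direction, 13.4% lower and 14.9% higher. The median log2 ratio of the 7 members was 0.16, with a range from -3.78 to 0.85. The 3 lower genes had log2 ratios from -3.78 to -0.87, and the other 4 from 0.16 to 0.85. All 3 remained called lower under each of the 4 other scalings. At a fold threshold of 2, Fads1 was no longer called. With an assumed variation between samples of 20% only Elovl3 was called, and with 40% 0 members were.

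**Figure D1:**
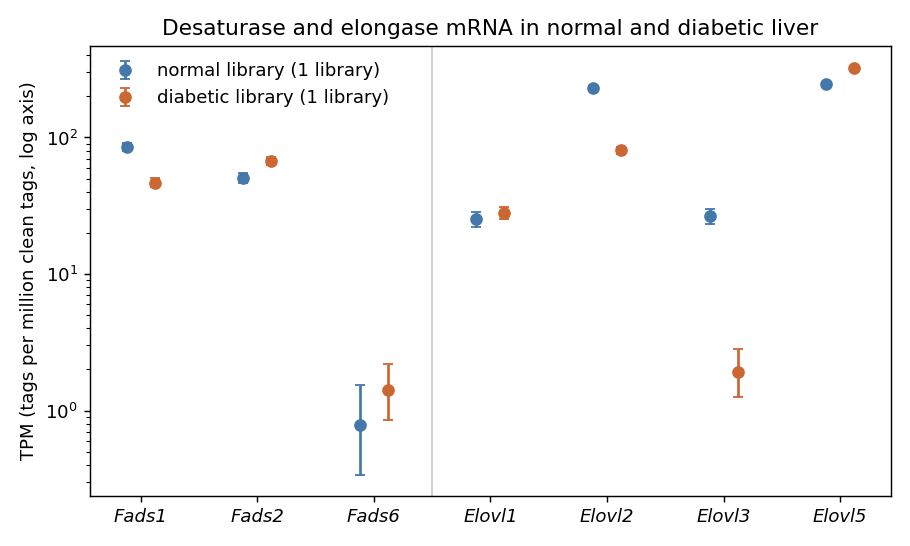
Level of each listed desaturase (left of the grey line) and elongase (right) in TPM on a log axis, in the normal (blue) and the diabetic (orange) library, 1 library each; bars are 95% Poisson counting intervals. Elovl3 moves from 26.5 to 1.92 TPM, Elovl2 from 230.0 to 80.7 TPM and Fads1 from 85.5 to 46.6 TPM, while Elovl5 stays the most abundant member in both libraries.

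Of the desaturases, Fads2 (Entrez 56473), the enzyme of the first and slowest step, was at 50.5 TPM in normal liver and 67.0 TPM in diabetic liver, from 519 and 905 reads. It was 1.33-fold higher (log2 ratio 0.41, 95% interval 0.25 to 0.57), which is under the 1.5-fold threshold although the FDR of the exact test was 9.3e-07. Its ratio was above that of 57.5% of all listed genes, and under TMM scaling its log2 ratio was 0.16. Fads2 therefore lay close to the middle of the table.

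Fads1 (Entrez 76267), the enzyme that completes arachidonic acid, was at 85.5 TPM in normal liver and 46.6 TPM in diabetic liver, from 879 and 630 reads. It was 1.83-fold lower (log2 ratio -0.87, 95% interval -1.02 to -0.73, exact test FDR 1.5e-30). Only 8.58% of the listed genes had a lower ratio.

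The order of these neighbouring genes was reversed between the libraries. In the normal library there were 1.69 Fads1 reads per Fads2 read (95% interval, 1.52 to 1.89), and in the diabetic library 0.696 (0.628 to 0.772). The log2 change of this ratio was -1.28 (95% interval, -1.50 to -1.06). Since both genes are counted in the same library, this ratio does not depend on how the libraries are scaled. Fads1 took 62.5% of the desaturase reads in the normal library (95% Wilson interval, 60.0% to 65.0%) and 40.5% in the diabetic library (38.1% to 43.0%).

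Fads6 (Entrez 328035), a predicted desaturase, was close to the lower limit of the table at 0.78 TPM and 1.41 TPM, which are 8 and 19 reads. On the log2 scale Fads6 lay 0.85 higher, with counting error reaching from -0.40 to 2.25 (95%) and an exact FDR of 0.249. No difference in Fads6 was detectable at this depth. Together, the 3 desaturases summed to 137 TPM in normal liver and 115 TPM in diabetic liver, and the log2 ratio of the sums was -0.25 (95% interval, -0.35 to -0.14). Within this sum the 2 abundant genes had log2 ratios of opposite sign.

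**Figure D2:**
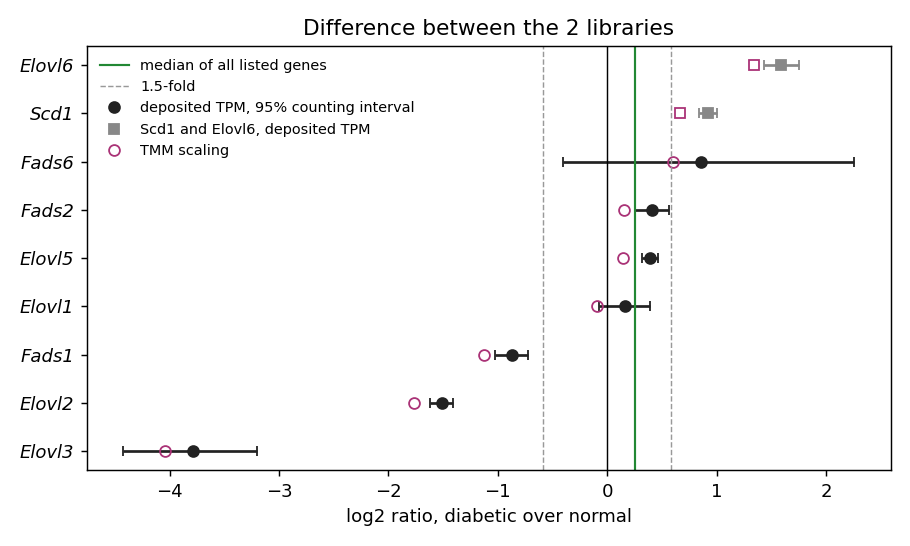
Log2 ratio of the diabetic over the normal library for the members (black circles) and for Scd1 and Elovl6 (grey squares), with 95% counting intervals, and the same ratios under TMM scaling (open symbols). The green line is the median of all listed genes at 0.25 and the dashed lines mark 1.5-fold; Elovl3, Elovl2 and Fads1 lie to the left of both dashed lines, and the open symbol of Elovl1 falls below 0.

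Among the elongases, Elovl5 (Entrez 68801), which acts on the shorter polyunsaturated chains, was the most abundant member in both libraries. It was at 245 TPM in normal liver and 322 TPM in diabetic liver, from 2521 and 4349 reads. It was 1.31-fold higher, with a log2 ratio of 0.39 (95% interval, 0.32 to 0.46) that did not reach the fold threshold and was 0.14 under TMM scaling.

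Elovl2 (Entrez 54326), which lengthens the longer polyunsaturated chains on the way to docosahexaenoic acid, was at 230.0 TPM in normal liver and 80.7 TPM in diabetic liver, from 2364 and 1090 reads. It was 2.85-fold lower (log2 ratio -1.51, 95% interval -1.62 to -1.41, exact test FDR 1.7e-194). Its ratio was below that of all but 2.82% of the listed genes. Elovl2 ranked 240th by level among the listed genes in the normal library and 843rd in the diabetic library.

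The pair of polyunsaturated elongases thus diverged. The normal library held nearly equal numbers, 1.07 Elovl5 reads per Elovl2 read (95% interval, 1.01 to 1.13), and the diabetic library 3.99 (3.73 to 4.27). The log2 change of the ratio of Elovl2 to Elovl5 was -1.90 (95% interval, -2.03 to -1.78). Elovl2 took 43.6% of the elongase reads in the normal library (95% Wilson interval, 42.3% to 45.0%) and 18.6% in the diabetic library (17.7% to 19.7%), while the share of Elovl5 was 46.5% and 74.4%.

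Elovl3 (Entrez 12686), an elongase of very long saturated and monounsaturated chains that is known in mouse liver for higher levels in males and a daily rhythm, differed most of all members. It was at 26.5 TPM in normal liver and at 1.92 TPM in diabetic liver, from 272 and 26 reads. The library from diabetic liver was 13.8-fold lower, at -3.78 on the log2 scale, with counting error reaching from -4.42 to -3.20 (95%) and an exact FDR of 1.6e-67. Counted from the lowest ratio, Elovl3 stood at place 29 of the 8551 listed genes. The interval is wider than that of Elovl2 because only 26 reads stand behind the diabetic value. Of 17 other symbols in a set of male-biased liver genes 10 were listed, and 10 of 10 were lower, beside 8.19% of all listed genes. Of 19 clock genes 14 were listed, with 8 higher and 1 lower, beside 22.9% and 8.19% of all listed genes. Both sets were chosen with earlier results of these data known. Both libraries were taken at the same labelled hour, and the part of sex-biased and daily expression in the difference of Elovl3 was not tested.

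Elovl1 (Entrez 54325), which supplies very long chains for ceramides, was at 25.2 TPM and 28.1 TPM, from 259 and 380 reads. Elovl1 lay 0.16 higher on the log2 scale, with counting error reaching from -0.07 to 0.39 (95%, exact FDR 0.246), but between -0.15 and -0.09 under the 4 other scalings, so these data give no direction for Elovl1. Elovl1 and Elovl3 could not be told apart in the normal library, with 1.05 Elovl3 reads per Elovl1 read (95% interval, 0.883 to 1.25). In the diabetic library 14.6 Elovl1 reads were counted per Elovl3 read (9.82 to 22.7). The 4 elongases together were at 527 TPM and 433 TPM, a log2 ratio of -0.28 (95% interval, -0.34 to -0.23).

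**Figure D3:**
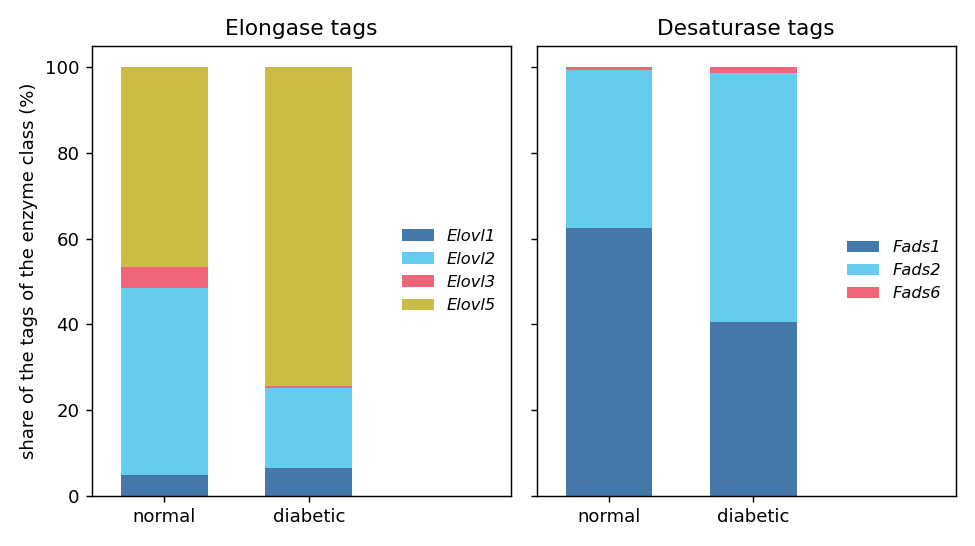
Share of each gene in the reads of the 4 listed elongases (left) and of the 3 listed desaturases (right), in percent, for the normal and the diabetic library, 1 library each. The share of Elovl5 goes from 46.5% to 74.4% and that of Elovl2 from 43.6% to 18.6%, and Fads1 goes from 62.5% to 40.5% of the desaturase reads.

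By level, the order in the normal library was Elovl5, Elovl2, Fads1, Fads2, Elovl3, Elovl1 and Fads6, in which Elovl3 and Elovl1 did not differ beyond counting error. In the diabetic library it was Elovl5, Elovl2, Fads2, Fads1, Elovl1, Elovl3 and Fads6. There the last 2 did not differ, with 0.731 Fads6 reads per Elovl3 read (95% interval, 0.382 to 1.37). For the 21 pairs of members, the change of the ratio within a library had an interval without 0 in 15 pairs and with 0 in 6. All 6 pairs with 0 joined genes among Fads2, Fads6, Elovl1 and Elovl5. The ratio of Fads2 to Elovl5 moved least, from 0.206 to 0.208, a log2 change of 0.02 (95% interval, -0.16 to 0.19). The 3 lower members differed from each other as well. Elovl2 differed more than Fads1 by 0.64 on the log2 scale (95% interval, 0.45 to 0.82), and Elovl3 more than Elovl2 by 2.27 (1.68 to 2.92).

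The genes with values most like those of the 3 lower members were found by the distance of their log2 TPM over the 2 libraries. For Fads1 these were Lyz1, Ppp1r3c and Gpr146, at distances of 0.02, 0.04 and 0.12. For Elovl2 they were Ifi27l1, Xbp1 and C8a, at 0.31, 0.34 and 0.34. Elovl3 had no such close neighbours, since Chrna4, Bmp4 and Gm3781 were at distances of 0.45, 0.61 and 0.98. With only 2 libraries many genes share such values by level alone.

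Scd1 and Elovl6, the close relatives that make oleic acid and lengthen palmitic acid, were both higher in the diabetic library. Scd1 was at 161 TPM in normal liver and 306 TPM in diabetic liver, and Elovl6 at 40.2 TPM and 121 TPM. Their log2 ratios were 0.92 and 1.59, and both were also called under TMM scaling. In the normal library 5.72 Elovl2 reads were counted per Elovl6 read (95% interval, 5.15 to 6.37), and in the diabetic library 0.667 (0.617 to 0.721), a log2 change of -3.10 (95% interval, -3.29 to -2.91). For Fads1 and Scd1 the ratio went from 0.530 to 0.153, a log2 change of -1.80 (95% interval, -1.97 to -1.62). Compared with Scd1, Fads2 and Elovl5 also had lower log2 ratios, by -0.51 (95% interval, -0.69 to -0.33) and -0.53 (-0.64 to -0.42). Degs1, the desaturase of ceramide synthesis, was at 73.1 and 67.8 TPM (log2 ratio -0.11).

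Genes of the shared later steps of elongation and of the electron supply to desaturases were listed for 9 of 13 symbols. Among these 9, 2 were called higher and 0 lower, beside 22.9% and 8.19% of all listed genes. The share called higher was thus close to that of all listed genes, and the median log2 ratio was 0.07. Hsd17b12, the reductase of the second step, had a log2 ratio of 0.31, and Tecr, the reductase of the last step, 0.07, and neither reached 1.5-fold. The 2 that were higher encode dehydratases of the third step, Ptplad1 (now Hacd3) from 62.1 to 153 TPM and Ptpla (now Hacd1) from 22.7 to 41.7 TPM. Cyb5, cytochrome b5 that hands electrons to the desaturases, was at 4020.1 and 3862 TPM, and Cyb5r3, its reductase, at 284 and 296 TPM. Under each of the 4 other scalings Cyb5b, the mitochondrial form, was called lower, and its log2 ratio was -0.41 on the deposited values and -0.66 under TMM scaling.

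Acyl-CoA synthetases, which activate fatty acids before they are lengthened or desaturated, had 7 of 9 symbols listed. Of the 7, 0 were called in either direction, beside 31.0% of all listed genes. Their log2 ratios lay between -0.56 and 0.54, with a median of 0.04. Acsl4, which prefers arachidonic acid, had only 65 and 88 reads (log2 ratio 0.04, 95% interval -0.44 to 0.53). The most abundant, Slc27a2, was at 533 and 773 TPM, just under 1.5-fold.

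Of 9 genes of the peroxisomal steps, which shorten chains on the way to docosahexaenoic acid and oxidize other very long chains, 7 were listed. Of the 7, 3 were higher and 0 lower, beside 22.9% and 8.19% of all listed genes, with a median log2 ratio of 0.74. Hsd17b4, an enzyme of the middle steps of this oxidation, went from 236 to 395 TPM, the transporter Abcd3 from 125 to 268 TPM and the thioesterase Acot8 from 42.6 to 77.7 TPM. Under TMM scaling only Abcd3 and Acot8 were still called higher, beside 14.9% of all listed genes. Scp2, the thiolase and carrier of the last step, had a log2 ratio of 0.25. Pecr, a peroxisomal reductase on the same list, had one of 0.41, and neither gene reached 1.5-fold. Elovl2, which acts earlier on the way to docosahexaenoic acid, was lower in the same library.

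Phospholipid remodelling genes, which place polyunsaturated chains in membranes, release them or carry them, had 14 of 21 symbols listed. Among the 14, 4 were higher and 0 lower, beside 22.9% and 8.19% of all listed genes, and the median log2 ratio was 0.32. Mfsd2a, a carrier of lysophospholipids with docosahexaenoic acid, was 24.0-fold higher, from 4.09 TPM and 42 reads to 98.1 TPM and 1325 reads (log2 ratio 4.58, 95% interval 4.14 to 5.06). Agpat3, Pla2g12a and Lclat1 were also higher, with log2 ratios of 1.55, 1.53 and 0.71, but under each of the 4 other scalings 3 genes of the list were called, and Lclat1, at 0.46 under TMM scaling, was not. Lpcat3, which inserts linoleic and arachidonic acid into phosphatidylcholine, was at 48.9 and 61.5 TPM (log2 ratio 0.33) and Pemt at 198 and 207 TPM, and neither was called. In sphingolipid synthesis, which uses the products of Elovl1, 6 of 10 genes were listed. Only 1 of the 6, Sptlc1, was higher (log2 ratio 0.76), beside 22.9% of all listed genes, and 0 under each of the 4 other scalings. Lass2 (now Cers2), the ceramide synthase for very long chains, was at 115 and 120 TPM, a log2 ratio of 0.06.

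**Figure D4:**
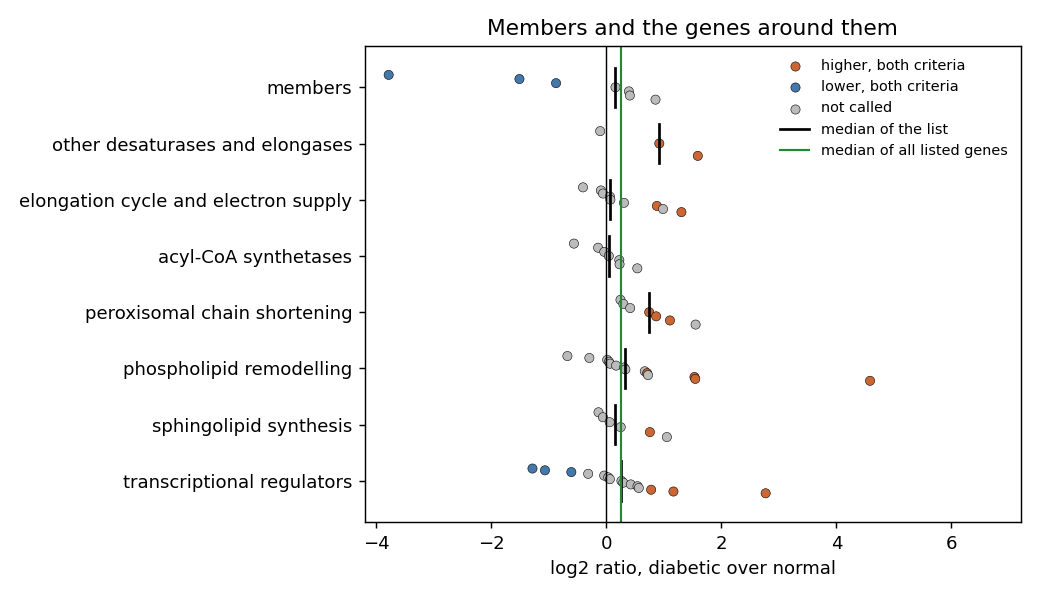
Log2 ratio of the diabetic over the normal library for the 7 members and for 7 lists of genes around them; each point is a gene, orange where called higher, blue where called lower and grey where not called, and black bars are list medians. The members hold 3 blue points and no orange one, and the peroxisomal list, with a median of 0.74, lies mostly to the right of the green line, the median of all listed genes at 0.25.

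Transcription factors and sensors known to control desaturases and elongases had 15 of 16 symbols listed. Among them 3 were higher and 3 lower, beside 22.9% and 8.19% of all listed genes. The median log2 ratio was 0.26, beside 0.25 over all listed genes. Srebf1, which encodes SREBP-1c, was at 19.9 TPM in normal liver and 29.0 TPM in diabetic liver (log2 ratio 0.54, 95% interval 0.29 to 0.79), below the fold threshold. Scap, which escorts SREBP proteins to the Golgi, was lower, from 57.7 to 37.8 TPM (log2 ratio -0.61). Insig1 was at 219 and 224 TPM, and Nr1h3, the oxysterol receptor LXRalpha, at 88.4 and 86.2 TPM, and neither was called.

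Ppara, the receptor that responds to polyunsaturated acids, was higher, from 36.6 to 82.1 TPM (log2 ratio 1.17), and so was Pparg, from 7.59 to 51.8 TPM (log2 ratio 2.77). Nr1h2 was higher as well (log2 ratio 0.78), and under TMM scaling its log2 ratio of 0.53 lay under the threshold. Ppard was lower, from 13.5 to 5.55 TPM (log2 ratio -1.28), and Hnf4a, a liver transcription factor, fell by 1.07 on the log2 scale, from 96.8 to 46.2 TPM.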

How the data were processed

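Poly(A) RNA of 1 normal and 1 diabetic liver library was profiled by the authors as DpnII tags on an Illumina 1G sequencer. Per the labels and the study's methods, clean tags were compared with RefSeq (the processing notes name mm9), counted per gene and deposited as TPM, here an RPM value per 1000000 clean tags with 2 decimals, with 0.01 for no tag. Aligner and treatment of tags common to several genes are not given in the sources used here. The lowest mean in the deposited table was 1.005 TPM, so genes under a mean of 1 TPM were already left out. No other sample column was present (0 unused).

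Reads were computed from the value steps, leaving out the placeholder. Within 0.1 of a whole number were 8513 of 8513 normal and 8536 of 8537 diabetic values. Two-sided exact binomial p-values were adjusted by Benjamini-Hochberg over 8551 genes. Intervals for single levels are Poisson, for ratios Clopper-Pearson or conditional exact, and for shares Wilson, all at 95%. Tags lack molecular identifiers, so intervals cover counting error only. TMM trimmed 30% of ratios and 5% of abundances at each end, and for the median ratio a minimum mean of 10 TPM was set. Members and gene lists were chosen with earlier results of these data known, and some genes of the lists are not reported here. Named genes are all members, Scd1 and Elovl6, genes of the shared steps and regulators that were called or decide a small count, and the 3 genes nearest to the 3 members with the largest change. The other genes named were chosen after their values were seen. The predicted tags came from GENCODE M21, and neighbours from a RefSeq table of GRCm38.p6, in which 7 of 7 member identifiers matched. The script was tested on simulated reads. Tests ran in scipy 1.17.1 under Python 3.11.15, tables were handled with pandas 2.3.3 and numpy 2.4.6, and plots were drawn in matplotlib 3.10.9.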

Additional observations from a re-analysis of the deposited data

How the results depend on the processing

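No paired analysis was possible because each group has 1 library, and for the same reason no replicate could be left out. The planned count model with an assumed variation was not run. A test of the log ratio that adds an assumed variation between samples took its place, chosen after seeing the data. With 20%, 1 member (Elovl3) was called lower, and over all listed genes 176 were higher and 64 lower. With 40%, 0 members were called, and 15 genes were higher and 10 lower over all. Elovl2 and Fads1 were thus called with counting error alone but at neither assumed variation. Elovl3 lost its call at 40%.

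Of 76 recomputed member ratios, 65 kept direction and call, 6 lost the call and 1 gained it. The 4 that changed sign were all for Elovl1, at -0.10 with the listed genes summed to one total, -0.094 under TMM, -0.15 under median-ratio and -0.11 under upper-quartile scaling. At a fold threshold of 2, Fads1 was no longer called, and 1236 genes were higher and 387 lower over all. By the fold alone, added after seeing the data, Fads6 made 1 higher member, and 2941 genes were higher and 1310 lower over all.

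In the order sum of listed genes, TMM, median ratio and upper quartile, the genes called higher over all were 1249, 1271, 1135 and 1220, and lower 1165, 1147, 1262 and 1183, against 1955 and 700 on the deposited values. In the same order, peroxisomal genes called higher were 2, 2, 1 and 2, against 3, and sphingolipid genes 0 in each. Of the elongation cycle list 1 gene, Cyb5b, was lower in each, and under median-ratio scaling 1 gene was higher. Pseudocounts of 0.1 and 1 TPM changed no member's call. A minimum mean of 5 TPM left out Fads6 and changed no other member's call. The listed genes hold 370647 and 443670 TPM, the rest of the clean tags being outside the table.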

Other observations

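Gene sets that share a known regulator with the members were also described. Of 12 target genes of SREBP-1c other than the members 10 were listed. In the diabetic library 4 of the 10 were higher and 1 was lower, beside 22.9% and 8.19% of all listed genes. Their median log2 ratio was 0.54, and Scd1 and Elovl6 are 2 of the 4. Under TMM scaling 4 were higher and 2 lower, beside 14.9% and 13.4% of all listed genes. The second lower gene there was Acly, with a log2 ratio of -0.39 on the deposited values and -0.64 under TMM. Thrsp, a gene of lipid synthesis, had a log2 ratio of 2.62 and Pnpla3 one of 1.59, while Acss2, the cytosolic acetyl-CoA synthetase, was lower at -0.64. Fads1, a target in the same set, had a log2 ratio of -0.87 and Fads2 one of 0.41. Of 26 target genes of PPARalpha 19 were listed. Among the 19, 16 were higher and 0 lower, beside 22.9% and 8.19% of all listed genes, with a median log2 ratio of 1.41. Under TMM scaling 12 were higher, beside 14.9% of all listed genes. These sets were chosen with earlier results known, and the part of either regulator in the values of the members was not tested.

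Elovl3 stood beside 10 other listed male-biased liver genes with a median log2 ratio of -3.38 and a range from -8.43 to -1.51. All 10 were called lower, where 8.19% of all listed genes were, and this set was chosen with earlier results known. Among the clock genes, Arntl had a log2 ratio of -1.47, and Nr1d1, Tef, Per1 and Per2 had log2 ratios of 1.55, 2.53, 1.36 and 1.37. Dbp, an output gene of the clock, had no tag in normal liver and 14.1 TPM in diabetic liver. Of the markers of other cells, the stellate list (6 of 7 listed) summed to 127 and 178 TPM with 1 higher and 1 lower. The cholangiocyte list (3 of 5 listed) summed to 61.5 and 107 TPM with 1 higher. Over all listed genes 22.9% were higher and 8.19% lower. Of the adipocyte list only Fabp4 was listed, at 8.56 and 26.6 TPM, and of the erythroid list only Alas2, at 51.9 and 44.2 TPM. The part of these cells in the values of the members was not tested.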
